A study of Mus musculus with 7 samples.

Results

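Gene deserts are long stretches of chromosome without protein-coding genes. Here they were taken as autosomal sequence at least 500 kb from the body of the nearest protein-coding gene in the RefSeq annotation of GRCm38, the build also known as mm10. Of 133337 regions of DNA methylation signal in the deposited file, 130882 were on the 19 autosomes and 4085 of these (3.12%) lay in a gene desert. The rule for members used position alone, and not their length, their heights or the libraries that called them. It was set with earlier results of these data known. The other 126797 autosomal regions are the comparison throughout.

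The regions came from methylated DNA immunoprecipitation sequencing (MeDIP-seq), in which an antibody against 5-methylcytosine pulls down methylated fragments. All DNA was from hippocampal neurons of C57BL/6J mouse embryos at E18.5, late in gestation, kept in culture for 11 days. There were 3 libraries of untreated cultures and 3 libraries of cultures given 55 mM KCl, which depolarises neurons, for 4 h; a pooled input library was not analysed here. The labels do not say whether the replicates of a group are separate cultures, so a p-value here speaks only of how far these libraries scatter, for which technical causes are possible, and the file holds no expression values against which the neuronal label could be checked.

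As background, methylation of mammalian DNA falls mostly on cytosines of CpG dinucleotides, which are sparse in most intergenic sequence and dense in CpG islands. Gene deserts hold enhancers of developmental genes, long non-coding RNA genes and many repeats. The antibody enriches DNA by the number of methylated cytosines in a fragment, so a CpG-poor stretch gives little MeDIP signal even where each of its CpGs is methylated. The CpG content of the regions and how much of each desert can be mapped were not read here, and the signal is not a percentage of methylation.

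The members that touch an annotated start site are the ones whose sequence can be shown. The reference tables hold 231 promoter windows in the deserts, from 250 bases before to 50 bases after a RefSeq start, of genes that do not code for protein, and 9 of them (3.90%) overlapped a region. Of these windows, 2 overlapped a region that all 6 libraries called, over 268 and 235 of their 300 bases, and 1 more overlapped a region that 5 libraries called, over 287 bases. They are printed 5′ to 3′ on the strand of the gene, from RefSeq and GRCm38.p6, with each CG dinucleotide in capitals, because the CpG is the unit that carries the mark.
Gm46244, a long non-coding RNA (lncRNA) gene, chr1:113145271-113145570, plus strand: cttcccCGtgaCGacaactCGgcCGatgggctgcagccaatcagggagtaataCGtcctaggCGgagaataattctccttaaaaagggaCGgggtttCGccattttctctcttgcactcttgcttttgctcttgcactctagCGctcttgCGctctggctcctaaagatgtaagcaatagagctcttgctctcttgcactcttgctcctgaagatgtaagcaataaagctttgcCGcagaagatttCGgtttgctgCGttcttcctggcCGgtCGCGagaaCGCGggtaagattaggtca
4930559C10Rik, an lncRNA gene, chr12:93444774-93445073, minus strand: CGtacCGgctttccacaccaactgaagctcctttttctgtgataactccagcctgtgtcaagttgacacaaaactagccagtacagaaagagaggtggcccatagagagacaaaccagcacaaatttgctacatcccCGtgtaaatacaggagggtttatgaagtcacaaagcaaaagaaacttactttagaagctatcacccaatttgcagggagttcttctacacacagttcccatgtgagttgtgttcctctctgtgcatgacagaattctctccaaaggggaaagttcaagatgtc
Gm33890, an lncRNA gene, chr17:60958897-60959196, minus strand: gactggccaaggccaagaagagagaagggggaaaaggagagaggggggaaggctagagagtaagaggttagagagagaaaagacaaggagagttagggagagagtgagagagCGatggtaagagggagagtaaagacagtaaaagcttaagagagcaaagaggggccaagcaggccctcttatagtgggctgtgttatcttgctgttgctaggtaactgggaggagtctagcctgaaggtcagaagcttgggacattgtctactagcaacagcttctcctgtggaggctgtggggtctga

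These 3 windows span a wide range of CpG number. Gm46244, between Dsel and Cntnap5a and 1280 kb from a protein-coding gene, held 18 CG dinucleotides, the most of the 231 desert windows. Its region had summit heights of 28, 30 and 24 in untreated replicates 1 to 3 and of 22, 25 and 13 in KCl replicates 1 to 3; a summit height is the peak of the signal within a called interval, in the units of the deposited file. The groups overlap at the Gm46244 window.

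4930559C10Rik, between Gm40892 and Flrt2, held 3 CG dinucleotides. Its heights were 21, 34 and 14 in untreated and 33, 23 and 16 in KCl libraries, so the groups overlap there too. Its region is 730 bases long and reaches beyond the window, and the CpG number of the regions themselves was not read. Gm33890, between Nudt12 and Efna5, held 1 CG dinucleotide and had heights of 14, 16 and 16 in untreated libraries and of 12 and 10 in KCl replicates 1 and 3, with no call in KCl replicate 2. The other 6 windows were called in 1 to 3 libraries.

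Desert promoter windows were CpG-poor. The median was 2 CG dinucleotides over all 231, 4 in the 9 with a region and 2 in the 222 without one. Protein-coding promoters, most of which lie in CpG islands, had a median of 14, and 611 of 20085 (3.04%) overlapped a region. Start sites of lncRNA genes outside protein-coding genes but under 500 kb from one had a median of 3 CG dinucleotides, and 510 of 7093 (7.19%) overlapped a region. These shares pool the 6 libraries and are descriptions; the difference between them was not tested.

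The deserts hold 19 microRNA hairpins in the reference tables, and 1 of them overlapped a region. Mir135a-2 lies between Tmpo and Nedd1, 613 kb from a protein-coding gene, and both of its mature strands fall inside a region of 428 bases at chr10:92071743-92072170. miR-135a is a microRNA expressed in brain. The mature sequences are shown from RefSeq with the seed, bases 2 to 8, which pairs with target RNAs, in capitals.
mmu-miR-135a-5p, chr10:92072141-92072163, minus strand: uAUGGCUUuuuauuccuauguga
mmu-miR-135a-2-3p, chr10:92072104-92072124, minus strand: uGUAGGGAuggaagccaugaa

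The region over Mir135a-2 was low. Its heights were 17 and 11 in untreated replicates 1 and 2 and 13 and 10 in KCl replicates 1 and 3, and untreated replicate 3 and KCl replicate 2 did not call it. The groups overlap. Nearby, the lncRNA gene Rmst, known for a role in neuronal differentiation, held 11 members in 83.4 kb, 1 of them called in all 6 libraries. The stretch between Tmpo and Nedd1 held 45 members in 0.503 Mb of desert, or 89.5 per Mb; it was singled out after its values were seen.

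The first comparison asked how densely methylated regions are spread in gene deserts. They were sparse there in every library: the 6 libraries together placed 20.3 regions on each Mb of desert and 57.6 on each Mb of the rest of the autosomes. Desert made up 201 Mb, or 8.40%, of the sequence between the first and the last protein-coding gene of each autosome. Regions covered 0.696% of the desert and 2.21% of the rest.

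Within single libraries, untreated replicates 1 to 3 called 12.6, 11.6 and 10.5 regions per Mb of desert against 37.0, 37.5 and 31.1 per Mb elsewhere. KCl replicates 1 to 3 called 13.6, 7.68 and 4.10 per Mb of desert against 40.0, 26.1 and 14.9 elsewhere. The ratio of the densities was 0.340, 0.308 and 0.338 in untreated and 0.341, 0.294 and 0.275 in KCl libraries, under 1 in 6 of 6, with a geometric mean of 0.315 (exact sign-flip permutation test over 6 libraries, two-sided, p = 0.031, the smallest that 6 libraries can give). Same-numbered untreated and KCl libraries deviated together weakly. A replicate block therefore flipped 3 pairs in place of 6 libraries. The exact sign-flip p was then 0.25 for this ratio and for those of length and height given further on. No smaller p is possible over 3 pairs. KCl replicate 3, which called the fewest intervals, 34834 against 60949 to 93470 in the other libraries, also had the lowest ratio. Set against sequence outside protein-coding gene bodies alone, the ratio was 0.395 (p = 0.031, exact sign-flip permutation test, a comparison added after seeing the data).

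**Figure D1:**
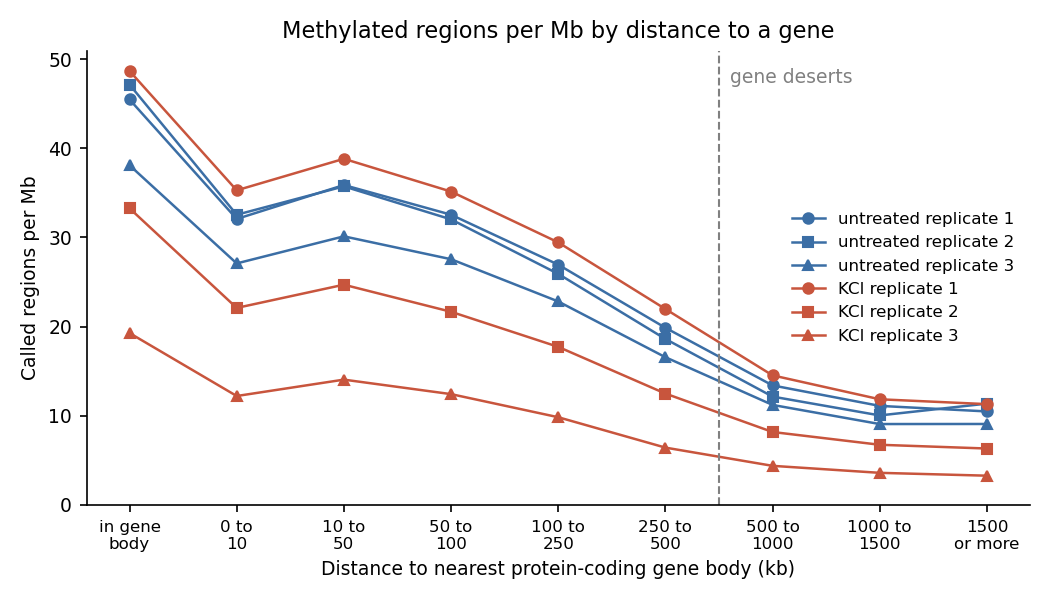
Called regions per Mb (vertical axis) by distance to the nearest protein-coding gene body in kb (horizontal axis), 1 line per library, blue for untreated and red for KCl. In each library the density falls from the 10 to 50 kb class to the 1000 to 1500 kb class, and the line of KCl replicate 3 lies lowest throughout.

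The density fell across the classes of distance on both sides of the 500 kb limit. Gene bodies held 69.7 regions per Mb over all libraries. Outside them the density was 51.4 per Mb within 10 kb of a gene, 56.1 at 10 to 50 kb, 51.3 at 50 to 100 kb, 42.8 at 100 to 250 kb and 32.1 at 250 to 500 kb. Within the deserts it was 21.6 per Mb at 500 to 1000 kb, 17.9 at 1000 to 1500 kb and 16.9 beyond. The share of regions called in all 6 libraries also fell away from gene bodies, from 22.3% there to 15.65% at 250 to 500 kb. It was level across the 500 kb limit, with 15.66% at 500 to 1000 kb, and was 13.8% beyond 1500 kb.

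Every autosome shared the sparseness. The ratio of desert density to the density elsewhere ran from 0.276 on chromosome 17 to 0.472 on chromosome 18, and was under 1 on 19 of 19. Chromosome 3 held the most members, 415 in 19.3 Mb of desert, and chromosome 19 the fewest, 41 in 1.51 Mb. Chromosomes 19 and 18 had the highest member densities, 27.1 and 26.6 per Mb of desert, and chromosome 16 the lowest, 16.9.

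The 2 members nearest above the limit among regions called in all 6 libraries lay at chr7:136218376-136218882, 501.9 kb from Mki67, with a mean height of 33.2, and at chr1:117089404-117089856, 502.1 kb from Cntnap5a, with 36.5. The 2 regions nearest below it lay at chr1:76867988-76868444, 498.7 kb from Epha4, with a mean height of 30.2, and at chr18:81485053-81485363, 498.0 kb from Sall3, with 24.7. The median distance of a member to its nearest protein-coding gene was 751 kb, and 1159 members lay at 1 Mb or more. The 3 farthest all lay between Pcdh20 and Pcdh9, 2217 to 2231 kb from the nearer of these genes, and were called in 1, 2 and 3 libraries with heights of 9 to 14.

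There were 246 stretches of over 1 Mb between neighbouring protein-coding genes, and 234 of them held 4084 of the members; 1 member lay before the first gene of a chromosome. The 12 stretches without a member had 0.688 Mb of desert in all. The number of members followed the length of desert in a stretch, with Pearson r = 0.89 and Spearman rho = 0.91 over the 246 stretches, a description over stretches that share the same 6 libraries.

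**Figure D2:**
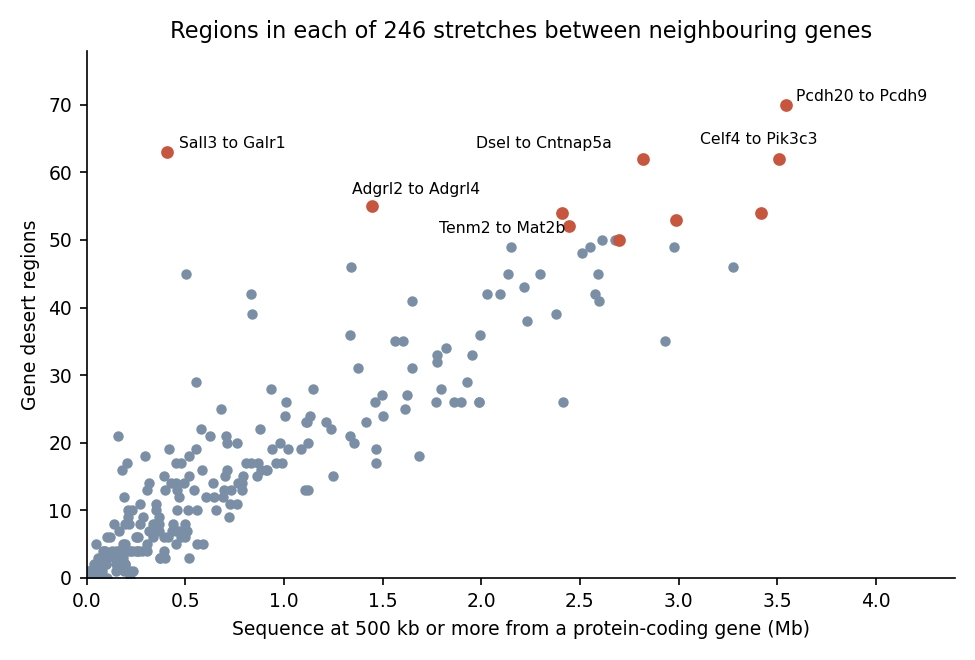
Number of gene desert regions (vertical axis) against the length of sequence at 500 kb or more from a protein-coding gene in Mb (horizontal axis), 1 point per stretch between neighbouring genes, with the 10 stretches named in the text in red. Most points follow 1 trend, and the stretch between Sall3 and Galr1 stands above it with 63 regions in 0.405 Mb.

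Pcdh20 and Pcdh9, both protocadherins of the neuronal surface, flank the stretch with the most members, 70 in 3.54 Mb of desert, 11 of them called in all 6 libraries. Untreated libraries called 45, 44 and 36 of these 70 and KCl libraries 50, 32 and 14. The next were Sall3 to Galr1 with 63, Dsel to Cntnap5a and Celf4 to Pik3c3 with 62 each, Adgrl2 to Adgrl4 with 55, Olfm4 to Pcdh17 and Slitrk5 to Gpc5 with 54 each, Tenm3 to Aga with 53, Tenm2 to Mat2b with 52 and Zeb2 to Acvr2a with 50, the last level with other stretches at that count. Together these 10 held 575 members (14.1%) on 12.8% of the desert sequence.

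The stretch between Sall3 and Galr1 stood apart from the rest. Sall3 encodes a zinc-finger transcription factor of development and Galr1 a receptor for the neuropeptide galanin. Its 63 members lay in 0.405 Mb, or 155 per Mb. Of them, 18 (28.6%) were called in all 6 libraries, against 15.5% of all members, a difference that was not tested. Some stretches outside the 10 had like values. Dok5 to Cbln4 held 21 members at 134 per Mb, and the 1 member between Pcdh10 and Pabpc4l gave 159 per Mb. Between Grm3 and Gm5861, 8 of 13 members were called in all 6 libraries. Untreated libraries called 41, 47 and 38 of the 63 and KCl libraries 52, 29 and 24.

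Tenm2 to Mat2b was the opposite case among the 10. Tenm2 encodes teneurin 2, an adhesion protein of synapses. Only 1 of the 52 members there was called in all 6 libraries, and untreated libraries called 26, 27 and 24 of them against 34, 14 and 2 in KCl libraries. Among the 72 stretches with at least 1 Mb of desert, Adgrl2 to Adgrl4, between genes for adhesion receptors of the latrophilin kind, was the densest at 38.0 members per Mb, the median was 17.9, and Nr2f1 to Arrdc3 was the sparsest at 10.7.

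The 124 stretches with under 0.5 Mb of desert held 27.2 members per Mb, the 50 with 0.5 to 1 Mb held 23.5, the 45 with 1 to 2 Mb held 18.08 and the 27 with 2 Mb or more held 18.02. The median gap between neighbouring members of a stretch was 27.0 kb, and 701 of 3850 gaps (18.2%) were under 5 kb.

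Cadherins and protocadherins, which hold neighbouring cells together, flanked 19 stretches with 660 members (16.2%), and 17 of the 95 autosomal genes of that family stood at a desert edge, against 2.21% of all protein-coding genes. Cdh2, Cdh8, Cdh10, Pcdh7, Pcdh10 and Pcdh17 were among them. The members beside them lay at 18.6 per Mb of desert, against 20.3 over all deserts, and 15.3% were called in all 6 libraries.

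Genes for other adhesion proteins gave a like picture. Those of the immunoglobulin and related families, such as Robo1, Dcc, Cadm2 and Tenm2, flanked 16 stretches with 373 members at 18.6 per Mb. Of the 42 autosomal genes of these families, 13 (31.0%) stood at a desert edge. Those with leucine-rich repeats, such as Lrrc4c, Slitrk5, Lingo2 and Flrt2, act at synapses and in axon guidance. They flanked 11 stretches with 267 members at 17.3 per Mb. Of the 36 autosomal genes of this kind, 8 (22.2%) stood at a desert edge.

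Glutamate and GABA receptor genes, including Grik2, Grm7 and Grin3a, flanked 7 stretches with 79 members at 16.6 per Mb, and 24.1% of these were called in all 6 libraries, against 15.5% of all members. The stretch from Grm3 to Gm5861 gave 8 of its 13, and the other 6 stretches 11 of 66 (16.7%). Potassium channel genes flanked 5 stretches with 102 members at 16.8 per Mb. Developmental transcription factor genes, among them Sox2, Isl1, Bcl11a and Nr2f1, flanked 14 stretches with 214 members. Their density, 22.5 per Mb, was the highest of the gene groups that flanked any stretch. The list of gene names behind this group left out Sall3 and Zeb2. The stretch from Sall3 to Galr1, at 155 per Mb, was therefore not in it. Stretches with less desert held more members per Mb, as given above, and the groups were not matched for this. At a desert edge stood 16.7% of autosomal glutamate and GABA receptor genes and 5.43% of potassium channel genes. The share was 6.76% for developmental transcription factor genes. Olfactory and vomeronasal receptor genes, with 1469 autosomal members, flanked none. No test was made between these groups of genes.

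Non-coding genes lie within the deserts. Of the 4085 members, 329 (8.05%) overlapped an lncRNA gene, against 17.0% of the 58290 other regions outside protein-coding genes. Inside desert lncRNA genes there were 24.0 members per Mb and outside them 20.02, a difference that was not tested. The lncRNA genes with the most members were 1700019L22Rik with 24, Gm32647 with 15 and Gm29260, Gm40677 and Rmst with 11 each, out of 134 that held any.

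Pseudogenes, the defunct copies of genes, held more regions for their length. Members overlapped a pseudogene in 93 cases (2.28%), with 44.5 members per Mb inside pseudogenes and 20.05 outside. Of these 93, 30.1% were called in all 6 libraries, against 15.1% of the members outside pseudogenes; neither difference was tested. Reads of a pseudogene can match its parent gene, and how reads with several matches were treated is not given in the sources used here. Deserts also include the surroundings of antibody and T cell receptor segment genes, which the annotation does not class as protein-coding: 75 members lay within 500 kb of one, and none overlapped one.

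Active regions, which merge the intervals of all libraries, had a median length of 323 bases in deserts (interquartile range 261 to 402, extremes 109 and 1879) and of 359 elsewhere (286 to 452). Regions of 1 kb or longer numbered 18 among members (0.441%) and 770 among the others (0.607%).

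The median length of the intervals that single libraries called on members was 264, 300 and 285 bases in untreated and 300, 284 and 286 in KCl libraries. The values for other regions were 288, 323 and 307 in untreated and 321, 303 and 303 in KCl libraries. Members had the shorter median in 6 of 6 libraries, with a geometric mean ratio of 0.932 (exact sign-flip permutation test, two-sided, p = 0.031). At equal summit height the ratio was 0.947 (p = 0.031 by the same exact test), a comparison added after seeing the data.

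Heights differed by 1 unit. Over the members that a library called, the median height was 14, 15 and 14 in untreated and 15, 14 and 13 in KCl libraries, against 15, 16 and 15 and 16, 15 and 14 for other regions. The geometric mean ratio was 0.934 (exact sign-flip permutation test, two-sided, p = 0.031), and 0.933 with mean heights. Among regions called in all 6 libraries the ratio was 0.976 (p = 0.25 by the same exact test), so the height difference did not pass there, while the length ratio was 0.935 (p = 0.031, exact). With distance measured to any RefSeq gene, which left 39 regions, the height ratio turned to 1.17 (p = 0.0625, exact) and the length ratio was 0.957 (p = 0.344, exact). At a limit of 250 kb the height ratio was 0.946 (p = 0.0625, exact).

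Members were called by fewer libraries. A single library called 1382 members (33.8%), against 29.1% of other regions, and all 6 called 632 (15.5%), against 20.7% of the others and 20.5% of all regions in the file. Calls in 2, 3, 4 and 5 libraries numbered 675, 479, 440 and 477. Of the members that only 1 library called, 430 came from KCl replicate 1 and 15 from KCl replicate 3, the libraries with the most and the fewest intervals.

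**Figure D3:**
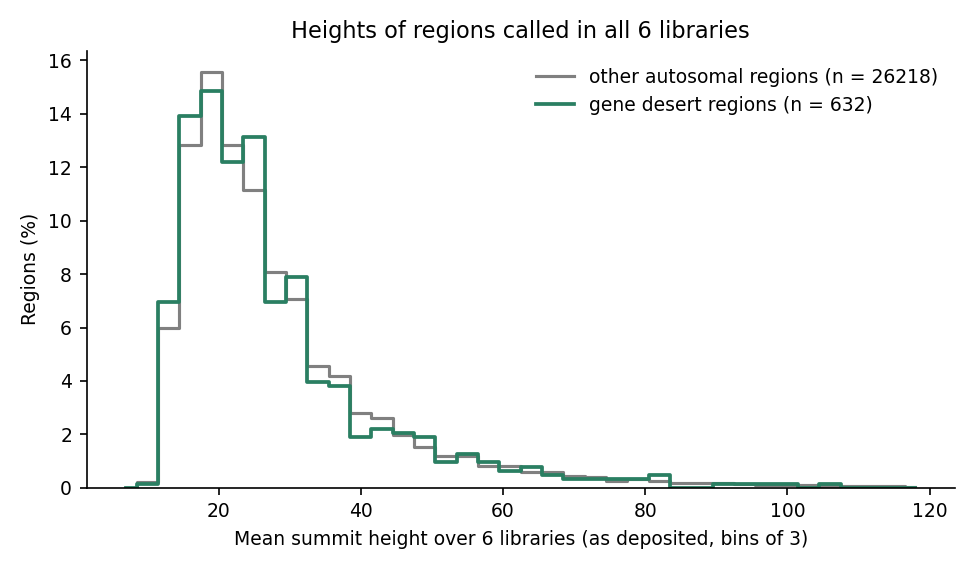
Percent of regions (vertical axis) by mean summit height over the 6 libraries (horizontal axis, units of the deposited file, bins of 3) for regions called in all 6 libraries, with gene deserts in green and other autosomal regions in grey. The curves lie close together, with medians of 23.7 and 24.2; 3 desert regions with a mean height of 120 or more lie beyond the axis.

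The 632 members called in all 6 libraries had mean heights with a median of 23.7, a 25th percentile of 17.8 and a 75th percentile of 31.8, against 24.2, 18.7 and 33.3 for the 26218 others. A mean height of 50 or more was reached by 51 members (8.07%) and by 2314 others (8.83%).

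The highest 3 members stood far above the rest and lay side by side, within 5233 bases on chromosome 2 between Lrrc4c and Iftap. The first, at chr2:98662171-98663055, had heights of 288, 292 and 225 in untreated and 320, 259 and 238 in KCl libraries. The second, at chr2:98663584-98664171, had 220, 229 and 169 and then 258, 178 and 171, and the third, at chr2:98666153-98667403, had 182, 178 and 147 and then 189, 166 and 152. The groups overlap at all 3. All 3 lay over 1000 kb from Lrrc4c, which encodes the synaptic adhesion protein NGL-1. This place in mouse assemblies is known to collect reads from satellite repeats in many kinds of sequencing experiment; the part of such reads in these heights was not tested.

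Below these 3 the mean height drops from 169 to 104.8. The fourth member, at chr1:94768646-94769108 between Pdcd1 and Fam174a, had 119, 126 and 93 in untreated and 128, 98 and 65 in KCl libraries. The fifth, at chr15:29386832-29387281, lay between Dnah5, a dynein of cilia, and Ctnnd2, which encodes the neuronal protein delta-catenin, and had a mean of 100.8.

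The sixth, at chr2:46281526-46281930, lay 1164 kb from Zeb2, a transcription factor of neural development, with 110, 114 and 79 in untreated and 110, 97 and 68 in KCl libraries. The seventh, at chr8:89572881-89573561 between Sall1 and Tox3, had 104, 102 and 94 in untreated and 125, 101 and 44 in KCl libraries. KCl replicate 1 was high and KCl replicate 3 low at this region. The other 3 of the 10 highest lay between Ttll7 and Adgrl2, Pcdh20 and Pcdh9, and Cdh6 and Cdh9, with means of 80.8 to 92.3.

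The longest members were not the highest. The longest, 1879 bases at chr3:42946736-42948614 between D3Ertd751e and Pcdh10, had heights of 69, 82 and 78 in untreated and 78, 62 and 53 in KCl libraries. The next 2, of 1597 and 1547 bases, were neighbours at chr8:96662004-96663600 and chr8:96666532-96668078 between Got2 and Cdh8, with mean heights of 53.5 and 20. A region of 1497 bases at chr2:171497540-171499036 lay between Dok5 and Cbln4, the latter a synaptic organiser, and 1 of 1317 bases at chr14:89897891-89899207 lay in the transcribed pseudogene Gm5088 between Pcdh20 and Pcdh9.

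The second comparison asked whether desert regions changed after 4 h of KCl. Libraries differed mainly in how much they called. Untreated libraries called 2539, 2332 and 2119 of the 4085 members and KCl libraries 2742, 1547 and 827. The untreated mean was 2330 ± 210 and the KCl mean 1705 ± 967 (SD, n = 3 each), a difference of -625 that was within the spread (exact permutation test, two-sided, p = 0.4; 3 against 3 cannot give less than 0.1). KCl replicate 1 called the most members of any library and KCl replicate 3 the fewest, and when each library kept the same number of its highest intervals the difference was 2.67. Leaving out KCl replicate 1 gave -1143 and leaving out KCl replicate 3 gave -185.5.

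**Figure D4:**
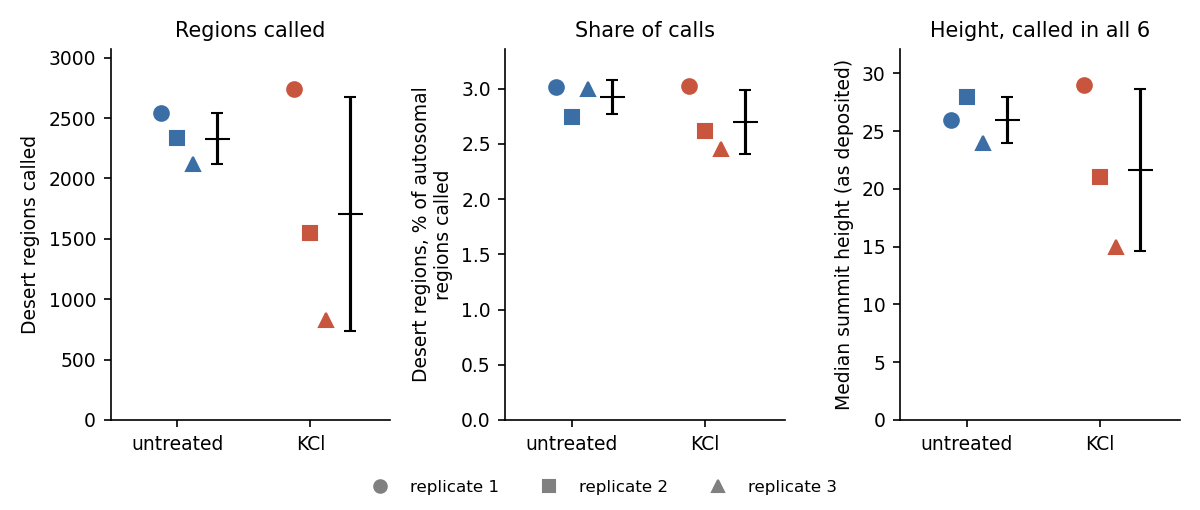
From left to right, the number of gene desert regions called, their percent of all autosomal regions called and the median summit height of those called in all 6 libraries, for each untreated (blue) and KCl (red) library, with bars for the mean ± SD of 3. The KCl libraries spread from 827 to 2742 regions and enclose the untreated ones in number and height.

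As a share of the autosomal regions a library called, members made up 3.02%, 2.74% and 3.00% in untreated and 3.02%, 2.62% and 2.46% in KCl libraries. The means were 2.92% ± 0.154 and 2.70% ± 0.290 (SD, n = 3 each), a difference of -0.222 percentage points (exact permutation test, two-sided, p = 0.4). With equal numbers of highest intervals it was 0.0148 percentage points. The groups overlap in the share of calls.

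Members called in all 6 libraries had median heights of 26, 28 and 24 in untreated and 29, 21 and 15 in KCl libraries. The difference of the group means was -4.33 (exact permutation test, two-sided, p = 0.5). Leaving out KCl replicate 3 gave 0.833 and leaving out KCl replicate 1 gave -8, so these 2 libraries set its sign and size.

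Calls that split cleanly by group were rare. Of the members, 38 (0.93%) were called in all 3 untreated libraries and no KCl library, beside 1.01% of all regions, and 1 was called in all 3 KCl libraries and no untreated library, beside 0.0367%. With equal numbers of highest intervals both counts were 5, and the shares over all regions are not given for that setting. Leaving out a library loosens the rule, so these counts cannot fall. The first was 84, 105 and 117 without untreated replicates 1, 2 and 3, and 242, 66 and 44 without KCl replicates 1, 2 and 3; the 242 are 5.92% of members, beside 5.23% of all regions. The second was 4, 4 and 1 without untreated replicates 1, 2 and 3. These were 0.0979%, 0.0979% and 0.0245% of members, beside 0.103%, 0.148% and 0.0877% of all regions. It was 3, 7 and 34 without KCl replicates 1, 2 and 3. Those were 0.0734%, 0.171% and 0.832% of members, beside 0.0682%, 0.156% and 0.827% of all regions.

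Height changes were tested with limma, a linear model fitted across regions, on log2(height + 1) over 20537 regions, which every library called and whose mean height was not in the lowest 25 percent. The fit held 458 members (11.2%), against 15.6% of other autosomal regions. None passed an adjusted p of 0.05 (Benjamini-Hochberg, two-sided), as was so for 0% of all regions tested, and the lowest adjusted p of a member was 0.93. At an unadjusted p under 0.05, 0 members were higher with KCl (0% of all) and 4 lower (1.12% of all). Without KCl replicate 1, 116 members (25.3%) were lower at that unadjusted threshold, beside 20.8% of all regions, and the lowest adjusted p was 0.18.

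Heights as a whole were lower in KCl libraries, by a median log2 change of -0.26 over the 458 members and -0.25 over all regions tested. Of the members, 423 (92.4%) were lower, against 90.6% of all. Leaving out KCl replicates 1, 2 and 3 in turn put the member median at -0.51, -0.28 and 0.01. The change of each named member is therefore given after centring each library on its median and is called a relative log2 change.

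After centring, the members' changes lay around 0 with an interquartile range of -0.13 to 0.10, against -0.12 to 0.13 over all regions tested, and 224 (48.9%) were above it, beside 51.1% of all. At an unadjusted p under 0.05, 6 members (1.31%) were higher, beside 1.97% of all regions, and 4 (0.873%) lower, beside 1.67%. All 3 KCl heights lay above all 3 untreated heights at 19 members (4.15%), beside 4.67% of all, and below them at 19 (4.15%), beside 3.89%. The lowest adjusted p of a member was above 0.99.

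**Figure D5:**
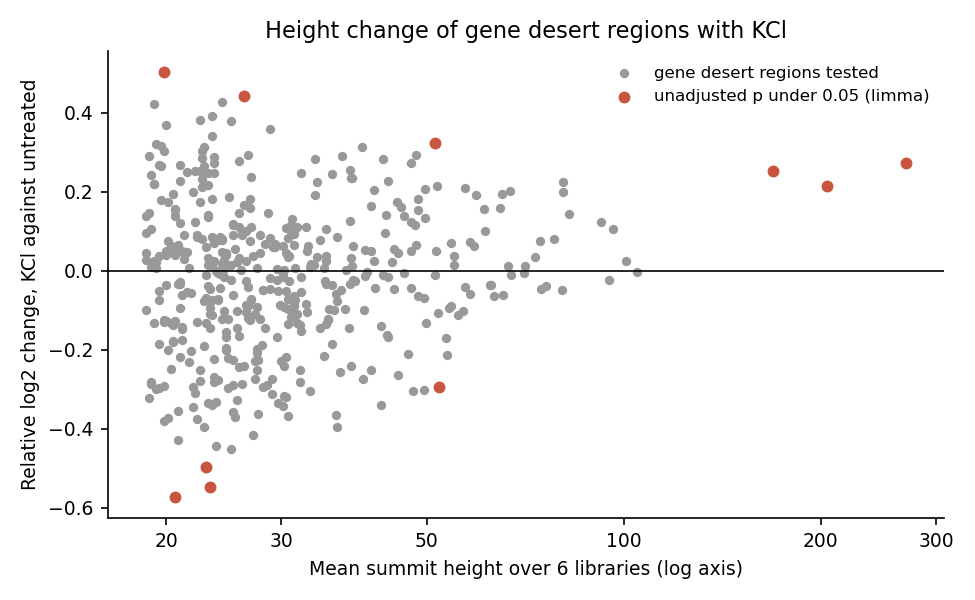
Relative log2 change of summit height with KCl (vertical axis) against mean height over 6 libraries (horizontal axis, log scale) for the 458 gene desert regions tested, with the 10 at an unadjusted limma p under 0.05 in red. Changes scatter on both sides of 0, with the widest spread at low heights, and the 3 points at the far right are the neighbouring regions of chromosome 2.

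The members with the lowest p-values are named as a description, none having passed the adjusted threshold. On the higher side, the 3 neighbours on chromosome 2 led, with relative log2 changes of 0.27 ± 0.08, 0.25 ± 0.10 and 0.21 ± 0.09 (limma SE), while as deposited their changes were 0.02, 0.00 and -0.04. Their group means were 268 and 272, 169 and 169, and 206 and 202 in untreated and KCl libraries. These regions were named for a high relative change, so deposited changes above the general drop follow from that choice. The next, at chr10:48535961-48536629, lay 557 kb from Grik2, which encodes a kainate-type glutamate receptor subunit, with heights of 17, 19 and 17 in untreated and 30, 21 and 15 in KCl libraries. As deposited, KCl replicate 1 alone was clearly high there. The relative log2 change was 0.50 ± 0.23, and it was 0.47 without KCl replicate 1.

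The fifth, at chr18:81801093-81801652, lay in the lncRNA gene Gm46614 between Sall3 and Galr1, with 56, 55 and 39 in untreated and 65, 55 and 39 in KCl libraries, and a relative log2 change of 0.32 ± 0.15. The groups overlap at both of these regions in the heights as deposited. Overlap after centring, the scale of the relative changes, is not given for the regions named here.

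On the lower side, the first was at chr5:80364702-80365082, 654 kb from Adgrl3, which encodes latrophilin 3, a synaptic adhesion receptor. Its heights were 23, 27 and 29 in untreated and 21, 14 and 10 in KCl libraries. Of the 10 members named here for their p-values, this alone had all KCl heights below all untreated ones as deposited, and its relative log2 change was -0.57 ± 0.23 (limma, adjusted p above 0.99).

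The second, at chr10:124472503-124472889, lay in the transcribed pseudogene 4930503E24Rik between Tafa2 and Slc16a7, with 28, 35 and 24 in untreated and 29, 14 and 10 in KCl libraries. The third, at chr18:41168794-41169354 between Kctd16, an auxiliary subunit of GABA-B receptors, and Prelid2, had 26, 31 and 28 and then 28, 13 and 12. KCl replicate 1 was level with the untreated libraries at both, and KCl replicates 2 and 3 were below them.

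The fourth, at chr3:23272663-23273463 between Tbl1xr1 and Naaladl2, had 58, 69 and 57 in untreated and 59, 39 and 31 in KCl libraries. The fifth, at chr15:5748736-5749190, lay 505 kb from Ptger4, a receptor for prostaglandin E2, with 25, 30 and 32 and then 29, 15 and 12. Relative log2 changes of these 4 ran from -0.55 to -0.29. At all 10 members named for their p-values, on both sides, KCl replicate 1 was the highest and KCl replicate 3 the lowest of the KCl libraries, as in the median over members.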

How the data were processed

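MeDIP-seq signal of 6 libraries, 3 untreated and 3 KCl, was taken from 1 deposited file of 13 tracks, per the file headers. A service company prepared and analysed the libraries, per the labels' protocols, and the submitters' processing notes name BWA, SICER and mm10 but no versions. For each library the authors deposited called intervals and, in the same column as region names, a summit height per interval, a whole number of at least 6 used here as a signal value; a further track holds regions merged over libraries. Read totals, scaling between libraries and the use of the input are not stated in the labels or headers used here, so the depth behind a height is unknown and intervals for counting error are left out. All 34834 to 93470 summits of a library lay in their own intervals.

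Each region took the highest summit per library. Distances used the RefSeq GRCm38.p6 gene table; 349 genes listed on unplaced scaffolds or patches (113 protein-coding) were left out. Stretches were measured between the first and last protein-coding gene of a chromosome. Height changes were fitted with limma 3.58.1 (R 4.3.3, intensity trend, pseudocount 1, Benjamini-Hochberg over all regions tested); the log2 scale of height + 1 understates changes of low regions. The fit was run on simulated data as a check of direction and of large changes after centring. Whether it would find changes as small as those seen here is not given. Values per library were compared by exact permutation or sign-flip tests (Python 3.11.15, numpy 2.4.6, pandas 2.3.3). Alternatives tried were a replicate block, median centring, pseudocount 5, no height filter, regions of at least 500 bases, limits of 250 kb and 1 Mb, distance to any RefSeq gene, equal numbers of highest intervals and leaving out each library.

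Same-numbered untreated and KCl libraries deviated together weakly. Correlations of deviations from the group means were 0.113, 0.108 and 0.114 over 20537 regions, against -0.0882 to -0.0137 for other pairs. Such deviations cancel within a group, so positive values for some pairs push the others negative. The replicate block rests on these values and not on a label, and the pairing stays uncertain.

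Named regions were the 10 highest, the 5 with the lowest limma p in each direction after centring, the 5 longest, the 3 farthest from a gene, and 2 on each side of the 500 kb limit. Named stretches were the 10 with most members, and named genes of the flanking groups are examples. The members and the gene lists were chosen with earlier results of these data known.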

Additional observations from a re-analysis of the deposited data

How the results depend on the processing

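The density ratio kept its direction and its p of 0.031 under equal numbers of highest intervals (0.272), limits of 250 kb (0.388) and 1 Mb (0.285) and distance to any RefSeq gene (0.273). Leaving out 1 library gave 0.310 to 0.324 for density, 0.933 to 0.935 for height and 0.929 to 0.935 for length, each with p = 0.0625, the smallest that 5 libraries can give in the exact sign-flip permutation test. The height ratio was 0.946 at 250 kb (p = 0.0625, exact sign-flip permutation) and 0.976 among regions called in all 6 libraries (p = 0.25, exact). With distance to any RefSeq gene, where 39 regions were left, the height ratio was 1.17 (p = 0.0625, exact), the length ratio 0.957 (p = 0.344, exact) and the difference in share 0.00191 percentage points.

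With equal numbers of highest intervals the difference in members called was 2.67 and that in share 0.0148. Leaving out 1 library gave differences of -1143 to -185.5 members, -0.383 to -0.101 percentage points and -8 to 0.833 units of median height. Members called in all untreated and no KCl libraries numbered 5 with equal intervals, 98 at 250 kb and 8 at 1 Mb. They numbered 0 with any RefSeq gene and 44 to 242 without 1 library. Those called in all KCl and no untreated libraries numbered 5, 3, 0, 0 and 1 to 34 in the same order. Shares over all regions are given above for the counts without 1 library and not for the other settings here. No member passed the adjusted limma threshold in any setting run, 0 without any 1 library. The second highest of the 3 neighbours on chromosome 2, at chr2:98663584-98664171, changed by -0.0386 (log2) as deposited.

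With the replicate block, differences within pairs were -625 members, -0.222 percentage points and -4.33 units of height (p = 0.5 each, exact sign-flip permutation over 3 pairs), and the lowest adjusted limma p of a member was 0.86, or 0.79 after centring. Over 3 pairs the ratios of density (0.315), height (0.934) and length (0.932) had p = 0.25 in the exact sign-flip permutation, the smallest possible, so they did not pass; the block, added for these ratios after seeing the data, changed no other call. At an unadjusted limma p under 0.05 the block gave 10 members (2.18%) lower as deposited, beside 2.48% of all regions, and after centring 8 (1.75%) higher and 12 (2.62%) lower, beside 2.68% and 2.41%.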
